A study of Canis lupus familiaris with 4 samples.

Results

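The proteasome is the multi-subunit protease that degrades ubiquitin-tagged proteins in the cytosol and nucleus. Its genes were examined here in canine glioblastoma cells that differ in the level of annexin A2 (ANXA2), a calcium-dependent membrane-binding protein. The members were taken by name, as every gene whose symbol on the array annotation is PSM, a letter from A to G and a number, or POMP. This gave 42 genes with 84 probe sets, of 15115 genes and 29254 probe sets with 1 gene symbol, and each gene was read from its brightest probe set by the mean of the 4 arrays. RNA from 4 cultured lines was hybridized to 1 Affymetrix Canine Genome 2.0 array each. J3T-1, which the study describes as high in annexin A2, and J3T-2, described as low, are subclones of the same canine glioma cells, with no added treatment. J3T-1shA is J3T-1 with annexin A2 knocked down, and J3T-2A is J3T-2 with annexin A2 overexpressed. All 4 lines grew in the same medium with serum, and no vector control line was among them, so annexin A2 and the derivation of each line cannot be told apart.

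In the proteasome, a barrel-shaped core particle of stacked alpha and beta rings cuts proteins, and 3 of its beta subunits, PSMB5, PSMB6 and PSMB7, are catalytic. A regulatory particle of ATPase (PSMC) and non-ATPase (PSMD) subunits recognizes ubiquitin, unfolds the substrate and feeds it into the core, and dedicated chaperones (PSMG genes, POMP and some PSMD genes) assemble both. Interferon induces the alternative catalytic subunits PSMB8, PSMB9 and PSMB10, which replace PSMB5, PSMB6 and PSMB7 in the immunoproteasome, and the activator subunits PSME1 and PSME2. These forms are known for producing peptides for presentation on major histocompatibility complex class I molecules. The annotation names no genome build and no sequence table was used, so no positions or sequences are given.

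The signals were MAS 5.0 intensities on a linear scale with array medians of 101.8 to 106.5. Differences are given as log2 ratios of 2 signals, with the line described as higher in annexin A2 on top. The ratio of J3T-2A to J3T-2 is called the overexpression comparison, that of J3T-1 to J3T-1shA the knockdown comparison, and that of J3T-1 to J3T-2 the parental comparison. A gene was measured in a comparison if at least 1 of its arrays reached a signal of 250. No line was measured more than once, so a ratio carries no test and its precision is limited by the number of arrays. The second probe set of a gene, where measured, gave a log2 ratio that differed from that of the brightest, with an SD of 0.30 in the overexpression comparison (3723 genes), 0.37 in the knockdown comparison (3768 genes) and 0.37 in the parental comparison (3766 genes). Members were counted as different at 1.5-fold, a log2 ratio of 0.58, and also at 2-fold. The ANXA2 signal did not separate the arrays by their labels as a whole. Its brightest probe set gave 28656 on the array labelled J3T-1, 30093 on J3T-1shA, 30102.5 on J3T-2 and 28775 on J3T-2A. A second probe set gave 24127.5, 25725, 30311 and 35651 in the same order, highest on J3T-2A (log2 ratio 0.23 to J3T-2) but lower on J3T-1 than on J3T-1shA (-0.09) and than on J3T-2. All line names below therefore stand for arrays as labelled. Of 7 listed glial markers, VIM (41177 to 43058) and SOX2 (936.8 to 1662.5) reached the limit on all 4 arrays, NES (94.9 to 345.9) only on J3T-1shA and PDGFRA (88.9 to 352.7) only on both J3T-2 lines. The astrocyte filament gene GFAP (8.2 to 21.6), S100B (12.7 to 33.6) and CSPG4 (6.2 to 57.7) were under it on every array. SOX2 and NES were past 1.5-fold lower in the knockdown comparison, with log2 ratios of -0.83 and -1.20.

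The 5 interferon-inducible subunits, together with the activator PSME4, were the proteasome genes that varied most between the lines (1.83-fold to 3.09-fold over the 4 arrays), and nearly all others were level, within 1.5-fold. Of 40 measured members, 32 stayed within 1.5-fold over all 4 arrays, against 56.6% of 7241 measured genes. Proteasome genes are brighter than most, with a median of mean signals of 3856 against 858.4. Of the 20 members at or over that median all 20 stayed within 1.5-fold, against 74.7% of the 1015 measured genes at or over it. Beyond 1.5-fold lay 8 members, these 6, the ATPase PSMC5 (1.62-fold) and the assembly factor PSMG3 (1.52-fold). All 8 had mean signals under that median, so the brighter members leave them out. These are bulk RNA values, in which fewer cells with a transcript and less of it per cell cannot be told apart. By its brightest probe set, no measured member differed by 2-fold in any of the 3 comparisons. Of all measured genes 3.79% (overexpression), 8.06% (knockdown) and 6.99% (parental) did. The third PSMD2 probe set was past 2-fold lower in the knockdown comparison (log2 ratio -1.11). PSMA8, a germ-cell alpha subunit (1.4 to 10.9), and PSMB11, the thymus-specific catalytic subunit (6.9 to 15.8), were under the limit on all 4 arrays, so 40 of 42 members passed it. PSMB7, PSMC1, PSMD1, PSMD4, PSMD5, PSMG4 and POMP had no probe set listed under their symbol alone and were not analysed here.

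**Figure D1:**
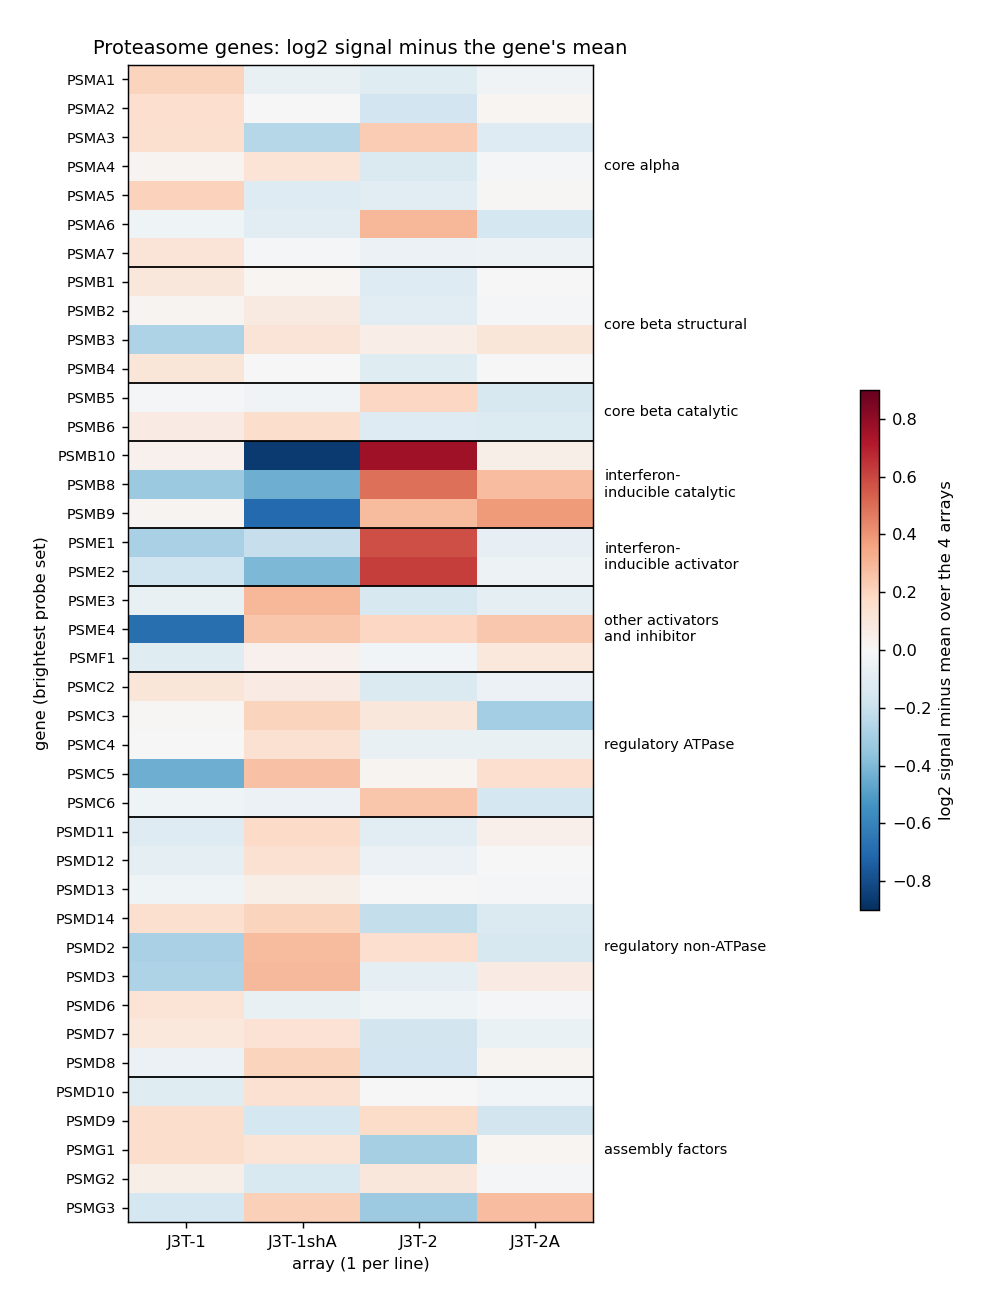
Log2 signal of each of the 40 measured proteasome genes minus its mean over the 4 arrays (colour scale in log2 units), with arrays in columns, 1 per line, and genes in rows grouped by class. The interferon-inducible rows are red in the J3T-2 column and blue in that of J3T-1shA, most deeply PSMB10, while PSME4 and PSMC5 are blue in the J3T-1 column alone and most other rows are pale.

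All 5 interferon-inducible subunits were lower on both arrays of the J3T-1 lines (J3T-1 and J3T-1shA) than on both arrays of the J3T-2 lines (J3T-2 and J3T-2A). Of the 40 measured members these 5 alone were, 12.5% against 16% of all measured genes. The margin was narrow for PSMB10 (1119.6 on J3T-1 against 1130.7 on J3T-2A). It was also narrow for PSME1 (2952.6 on J3T-1shA against 3238.1 on J3T-2A) and PSME2 (2912.2 on J3T-1 against 3185.1 on J3T-2A). PSMB8, the inducible counterpart of PSMB5, gave 356.0 on the array labelled J3T-1, 331.2 on J3T-1shA, 635.0 on J3T-2 and 545.0 on J3T-2A. The signals of the J3T-1 lines lay close together and below those of the J3T-2 lines, with a log2 ratio of -0.83 in the parental comparison. A second probe set gave 229.4, 177.1, 422.7 and 394.3 in the same order of lines and a log2 ratio of -0.88. Within each pair of lines PSMB8 was nearly level, at -0.22 in the overexpression comparison and 0.10 in the knockdown comparison.

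PSMB9, the inducible counterpart of PSMB6, gave 1637 on the array labelled J3T-1, 989.0 on J3T-1shA, 1960.1 on J3T-2 and 2096.5 on J3T-2A. It was lowest on J3T-1shA, by 1.65-fold against the next array, and close on J3T-2 and J3T-2A. The log2 ratios were 0.73 in the knockdown comparison, 0.10 in the overexpression comparison and -0.26 in the parental comparison, and the gene had 1 probe set.

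PSMB10, the inducible counterpart of PSMB7, gave 1119.6 on the array labelled J3T-1, 599.4 on J3T-1shA, 1851 on J3T-2 and 1131 on J3T-2A. Its signals on J3T-1 and J3T-2A were nearly equal, with J3T-2 above and J3T-1shA below, and its range over the arrays, 3.09-fold, was the widest of the 40 measured members. It was 1.87-fold higher on J3T-1 than on J3T-1shA (log2 ratio 0.90) and 1.64-fold lower on J3T-2A than on J3T-2 (-0.71). Its other probe set stayed under the limit throughout (26.7 to 70.3), so the gene rests on 1 probe set.

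PSME1 and PSME2 encode the subunits of the ring-shaped activator that opens the core particle without ATP. PSME1 gave 2780.2 on the array labelled J3T-1, 2953 on J3T-1shA, 5090.5 on J3T-2 and 3238 on J3T-2A. PSME2 had 2912 on J3T-1, 2490.2 on J3T-1shA, 5077 on J3T-2 and 3185 on J3T-2A. Both genes stood apart on the array labelled J3T-2 and were close on the other 3. They were 1.57-fold (PSME1) and 1.59-fold (PSME2) lower in the overexpression comparison, with log2 ratios of -0.65 and -0.67, and 1.83-fold and 1.74-fold lower in the parental comparison. In the knockdown comparison the log2 ratios were -0.09 and 0.23. The other measured probe sets lay close, at -0.75 and -0.65 for PSME1 and -0.64 for PSME2 in the overexpression comparison.

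**Figure D2:**
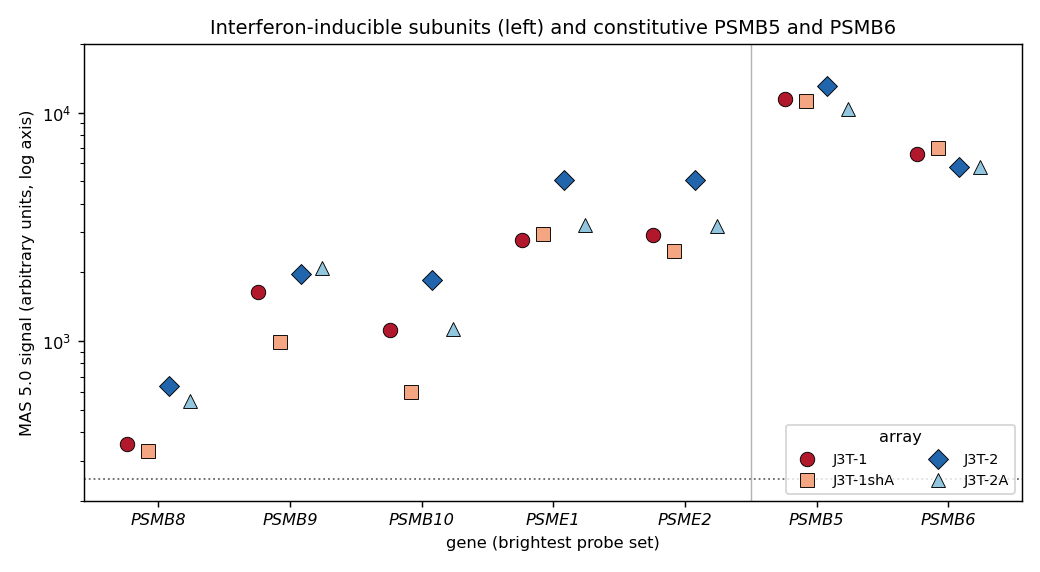
MAS 5.0 signal (arbitrary units, log axis) of the brightest probe set of the 5 interferon-inducible subunits and of the constitutive catalytic subunits PSMB5 and PSMB6 on the 4 arrays, 1 symbol per array, with the signal limit of 250 dotted. Within each inducible gene both J3T-2 lines (blue) lie above both J3T-1 lines (red), narrowly for PSMB10, PSME1 and PSME2. PSMB5 and PSMB6 stay within 1.26-fold and 1.22-fold, and levels of different genes are not to be compared.

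Looked at by array, 3 of 40 measured members were highest on the array labelled J3T-2 by at least 1.5-fold over each other array, PSMB10, PSME1 and PSME2, against 2.84% of all measured genes. On the array labelled J3T-1shA, PSMB9 and PSMB10 were lowest by that margin, against 3.88% of genes, and on that labelled J3T-1 PSME4 was, against 3.16%. In the remaining patterns no member stood apart: highest on J3T-1 (2.28% of genes), highest on J3T-1shA (3%), lowest on J3T-2 (2.28%), highest on J3T-2A (0.414%) and lowest on J3T-2A (0.621%). These patterns were counted with the values known.

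The constitutive catalytic subunits had another order of lines. PSMB5, which carries the chymotrypsin-like activity, gave 11435 on the array labelled J3T-1, 11241 on J3T-1shA, 13070.5 on J3T-2 and 10401.5 on J3T-2A. A second PSMB5 probe set gave 4858, 5521.1, 5316.6 and 4478 on these arrays, highest on J3T-1shA. Its log2 ratio in the knockdown comparison was -0.18, where the brightest had 0.02. PSMB6, which carries the caspase-like activity, had 6609 on J3T-1, 7014 on J3T-1shA, 5799 on J3T-2 and 5766 on J3T-2A, so that here both J3T-1 lines were the higher ones. The log2 ratio of PSMB9 exceeded that of PSMB6 by 0.81 in the knockdown comparison, which is 1.76-fold, and lay 0.11 above it in the overexpression comparison. The difference between PSMB8 and PSMB5 was -0.64 in the parental comparison, 0.11 in the overexpression comparison and 0.08 in the knockdown comparison. In the parental lines the difference between PSMB9 and PSMB6 was -0.45. PSMB10 could not be paired, since PSMB7 had no listed probe set.

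The rest of the core particle was level. The 7 measured alpha subunits, which form the outer rings and gate the core, had signals of 2695 to 17360.4 and varied by 1.12-fold to 1.40-fold over the arrays. PSMA3 and PSMA6 were the lowest ratios in the overexpression comparison. PSMA6 had 4646 on the array labelled J3T-1, 4454 on J3T-1shA, 5872 on J3T-2 and 4270.1 on J3T-2A, a log2 ratio of -0.46. PSMA3 had 16403 on J3T-1, 12439 on J3T-1shA, 17360.4 on J3T-2 and 13697 on J3T-2A, with -0.34 in the overexpression comparison and 0.40, the highest of the class, in the knockdown comparison. A second PSMA3 probe set gave -0.38 and 0.37. The highest ratio in the overexpression comparison was that of PSMA2 (0.19), and the lowest in the knockdown comparison that of PSMA4 (-0.10). PSMB1 to PSMB4, the beta subunits without catalytic activity, varied by at most 1.32-fold. Among them PSMB3 was lowest on the array labelled J3T-1 (10275.0 against 12995 to 13537), with a log2 ratio of -0.40 to J3T-1shA, and PSMB1 (0.12) and PSMB4 (0.12) had the highest ratios in the overexpression and knockdown comparisons.

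In the regulatory particle, most subunits were lower in J3T-1 than in the knockdown line by their labels, with all but PSMC5 short of 1.5-fold. Of 14 measured subunits 11 lay below 0, with a median log2 ratio of -0.16, where 3269 of 6944 measured genes lay below 0 with a median of 0.03. PSMC5, an ATPase of the hexameric ring that unfolds substrates, was the only one past 1.5-fold. It gave 2655 on the array labelled J3T-1, 4313 on J3T-1shA, 3662 on J3T-2 and 3993 on J3T-2A. The array labelled J3T-1 was the low one and the other 3 were near each other, with a log2 ratio of -0.70 in the knockdown comparison, 0.12 in the overexpression comparison and -0.46 in the parental comparison. PSMC5 had 1 probe set.

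PSMD2, the large scaffold that holds ubiquitin receptors and shuttle factors, gave 4190.4 on the array labelled J3T-1, 6237 on J3T-1shA, 5705.5 on J3T-2 and 4639 on J3T-2A. PSMD3, a lid subunit, had 2062 on J3T-1, 3063 on J3T-1shA, 2348 on J3T-2 and 2637 on J3T-2A. Both were lowest on J3T-1 and highest on J3T-1shA, and both had a log2 ratio of -0.57 between these arrays, just within 1.5-fold. Their other probe sets gave -0.74 and -1.11 for PSMD2 and between -0.71 and -0.48 for PSMD3. PSMC4, with -0.13 by its brightest probe set, had -0.79 by its second, the largest difference between the brightest and the second probe set of a member. PSMD6 had the highest ratio of the non-ATPase subunits (0.20) and PSMC2 of the ATPases (0.04). In the overexpression comparison the regulatory particle had a median of 0.07 over 14 subunits and none was past 1.5-fold. Its lowest ratios there were those of PSMC6 and PSMC3 (both -0.41) and PSMD2 (-0.30), and its highest was that of PSMD8 (0.19). Second probe sets gave 0.00 for PSMC3 and -0.15 for PSMD8. PSMD14, the deubiquitinase of the lid, was higher on both J3T-1 lines (9002 and 9375) than on both J3T-2 lines (7031 and 7472), a log2 ratio of 0.36 in the parental comparison.

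Among the activators outside the interferon-inducible pair, PSME4 encodes a large ATP-independent activator that caps the core. It gave 1339.8 on the array labelled J3T-1, 2553 on J3T-1shA, 2437 on J3T-2 and 2533 on J3T-2A. The array labelled J3T-1 stood alone, 1.91-fold below J3T-1shA and 1.82-fold below J3T-2, while J3T-2A and J3T-2 were level (log2 ratio 0.06). Its other probe sets gave -0.53 and -0.47 in the knockdown comparison, in the same direction and short of 1.5-fold, and -0.29 and -0.56 in the parental comparison. PSME3, the nuclear activator, was highest on J3T-1shA (1624 against 1195 to 1262), and PSMF1, an inhibitor of the core particle, stayed between 410.9 and 473.0.

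The 5 measured assembly factors had medians of -0.03 in the overexpression comparison and 0.03 in the knockdown comparison. PSMG3, part of a chaperone pair for the alpha ring, gave 437.1 on the array labelled J3T-1, 565.4 on J3T-1shA, 388.7 on J3T-2 and 591.5 on J3T-2A. It was thus 1.52-fold higher on J3T-2A than on J3T-2 (log2 ratio 0.61) and was the only member past 1.5-fold in that direction, but a second probe set of like brightness had 384.1 on J3T-2A and 391.7 on J3T-2, a log2 ratio of -0.03. PSMG1, which works with PSMG2 on the same ring, had 2701 on J3T-2 against 3373 to 3702 on the other arrays, and 0.45 in the parental comparison (0.53 by its second probe set). PSMD9 and PSMD10, chaperones of the ATPase ring, had ratios between -0.33 and 0.31 in the overexpression and knockdown comparisons, with both extremes from PSMD9. Other PSMD9 probe sets of like brightness gave -0.03 and 0.39 in the former, where the brightest had -0.33, and -0.09 and -0.20 in the latter, where it had 0.31, so PSMD9 has no settled direction.

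**Figure D3:**
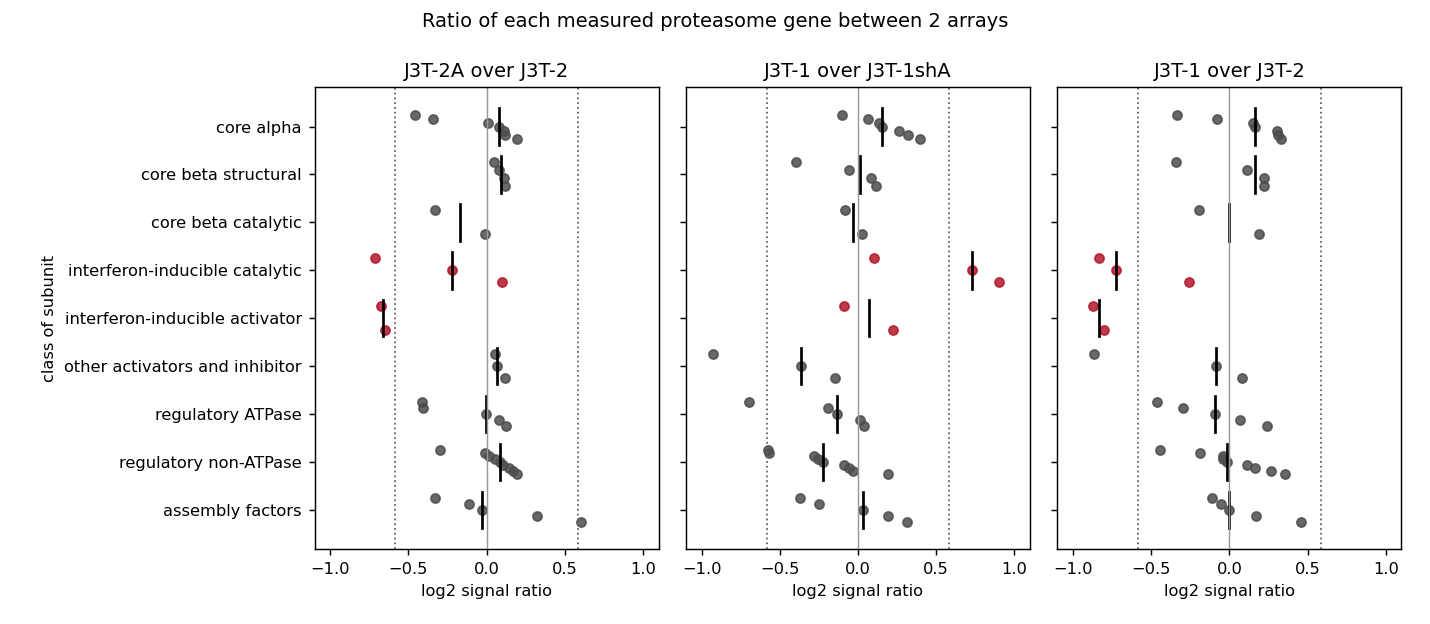
Log2 signal ratio (x axis) of each measured proteasome gene (points, interferon-inducible subunits in red) by class (y axis) in 3 comparisons of 1 array against 1 array, with class medians as black bars and dotted lines at 1.5-fold. The inducible activators lie at -0.65 and -0.67 in the overexpression comparison (left), PSMB9 and PSMB10 at 0.73 and 0.90 in the knockdown comparison (middle), and 4 of the 5 inducible subunits beyond 1.5-fold lower in the parental comparison (right).

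Counted over the whole set, 1 member was at least 1.5-fold higher and 3 were lower in the overexpression comparison, out of 40, where 5.04% and 7.03% of 6860 measured genes were. In the knockdown comparison, 2 were higher and 2 lower, against 10.9% and 11.1% of 6944 genes. In the parental comparison, 0 were higher and 5 lower, PSMB8, PSMB10, PSME1, PSME2 and PSME4, against 9.16% and 11.2% of 6967 genes. The parental comparison shares an array with each of the others. The shares of members past 1.5-fold in either direction, 10% in the first and second comparison and 12.5% in the third, were not above those of all genes (12.1%, 22% and 20.4%). The medians over members were 0.06, -0.04 and -0.03, beside -0.003, 0.03 and 0.03 over all measured genes.

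By class the picture was uneven. The 5 interferon-inducible subunits had a median of -0.65 in the overexpression comparison, 0.23 in the knockdown comparison and -0.80 in the parental comparison. The other 35 measured members had medians of 0.06, -0.06 and 0.07, and 1, 2 and 1 of them were past 1.5-fold. The array labelled J3T-1shA was the highest of the 4 for 18 of 40 members, against 27.3% of all measured genes, and for 0 of the inducible subunits. Both J3T-1 lines lay above both J3T-2 lines for 11 members, against 20.4% of genes, among them PSMA4, PSMA7, PSMB1, PSMB2, PSMB6 and PSMD14.

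The limma fit across 7241 genes set the lines described as higher in annexin A2 against their counterparts. The line of origin (J3T-1 or J3T-2) was a block. In this limma fit 0 of 40 members passed an adjusted p of 0.05 (Benjamini-Hochberg) and 0 had an unadjusted p under 0.05. Over all genes 0 passed and 1.74% had such an unadjusted p. Both arrays of lines described as high in annexin A2 lay above both others for 5 members (PSMA1, PSMA2, PSMA5, PSMB4 and PSMD6), against 14.1% of genes. They lay below both others for 4 (PSMC3, PSMD2, PSMD10 and PSMD13), against 12.8%. Neither share of members, 12.5% and 10%, was above that of all genes. For the line of origin in the same limma fit, 0 of 40 members passed an adjusted p of 0.05, as against 0.0138% of genes, and PSMB8 alone had an unadjusted p under 0.05 (4.85% of genes). Its difference of J3T-1 lines minus J3T-2 lines was -0.66 ± 0.22 (SE, on the log2 scale with a pseudocount of 80), with an adjusted p of 0.93. That fit has 1 residual degree of freedom, and its arrays are different lines and not replicate cultures.

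**Figure D4:**
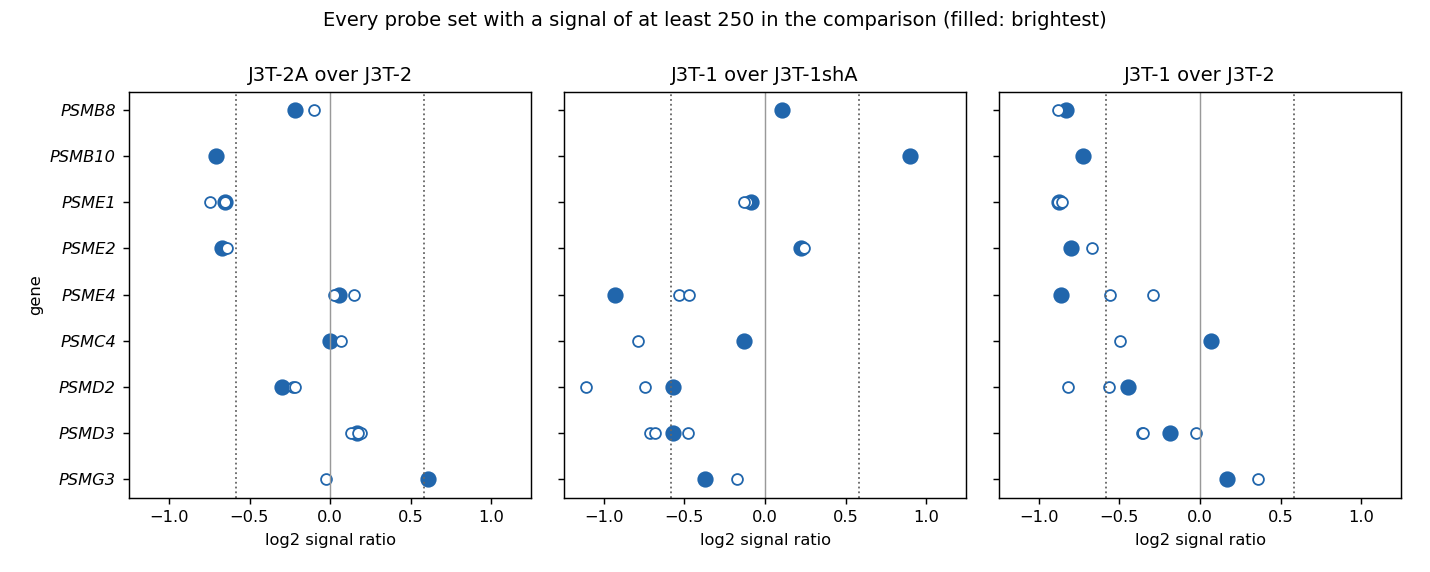
Log2 signal ratio (x axis) by every probe set with a signal of at least 250 in the comparison, for 9 proteasome genes (y axis) in 3 comparisons, with the brightest probe set filled and dotted lines at 1.5-fold. The probe sets of PSMB8, PSME1 and PSME2 lie together, those of PSME4, PSMD2 and PSMD3 spread on 1 side of 0 in the knockdown comparison, and those of PSMG3 part at 0.61 and -0.03 in the overexpression comparison.

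The difference between the log2 ratios of the brightest and the second probe set had an SD of 0.22 over 24 members in the overexpression comparison, 0.24 over 23 in the knockdown comparison and 0.24 over 24 in the parental comparison, each below that over all genes. The sign was the same for 16, 16 and 20 of them. Brightest probe sets carried the suffix _s_at, which marks probes shared by several transcripts, for 27 of 42 members and _x_at for 1, so near-identical transcripts may share such a signal.

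Other genes of the ubiquitin system were mostly level too. Of 9 measured proteasome partners none was past 1.5-fold in the overexpression comparison (median 0.12), against 12.1% of all measured genes. A second UCHL5 probe set gave 0.79 there, where the brightest had 0.35. Of 10 in the knockdown comparison only the ubiquitin ligase UBE3C was higher (270.8 against 167.8, near the limit, median of the list 0.28), against 10.9% of all measured genes. By their brightest probe sets all 10 partners were higher on J3T-1 than on J3T-2, by less than 1.5-fold (median 0.29). Of 6967 measured genes 3658 were higher there. ADRM1 and AKIRIN2 were near level (both 0.05), and a second AKIRIN2 probe set gave -0.51. Transcription factor genes of the proteasome, NFE2L1, NFE2L2 and MAFG, had medians of -0.17 and -0.22 in the overexpression and knockdown comparisons, and the 4 measured ubiquitin supply genes -0.04 and 0.20, none past 1.5-fold.

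Several genes of interferon signalling and antigen presentation were likewise lower on both J3T-1 lines. Of 9 measured antigen presentation genes, 7 were lower on both J3T-1 lines than on both J3T-2 lines. Of 10 interferon pathway genes 4 were, namely IRF1, IRF9, JAK2 and ISG15. The share of all measured genes was 16%. The margin was narrow for JAK2 (686.8 on J3T-1 against 688.9 on J3T-2A) and IRF9 (651.4 against 678.7). ISG15 reached the limit on J3T-2 alone. STAT2 went the other way, at 374.6 and 468.8 on J3T-1 and J3T-1shA against 366.9 and 367 on J3T-2 and J3T-2A. The share of all measured genes higher on both J3T-1 lines was 20.4%. IRF7, SOCS1 and MX1 were under the limit on every array, as was NLRC5 of the antigen presentation list. IRF1, a transcription factor that interferon induces and that drives immunoproteasome genes, gave 672.3 on the array labelled J3T-1, 389.7 on J3T-1shA, 1730.4 on J3T-2 and 976.9 on J3T-2A. As for PSMB10, J3T-2 was highest and J3T-1shA lowest. The log2 ratio of IRF1 was -0.82 in the overexpression comparison and 0.79 in the knockdown comparison, and its other probe sets gave -0.13 and -0.69, and 0.75 and 0.64.

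IRF9, a component of the interferon-activated transcription factor complex, had 651.4 on J3T-1, 644.3 on J3T-1shA, 1112 on J3T-2 and 678.7 on J3T-2A. It stood apart on J3T-2 alone, the pattern of PSME1 and PSME2, with a log2 ratio of -0.71 in the overexpression comparison and -0.44 by its second probe set. The kinase gene JAK2 had -1.02 there by its brightest probe set but -0.02 by its second. ISG15, a ubiquitin-like modifier, had 206.3 on J3T-2A, under the limit, against 336.1 on J3T-2. In the knockdown comparison the interferon-gamma receptor chain IFNGR1 was lower, with signals of 229.1 and 477.0 (log2 ratio -1.06), and its second probe set gave -0.68. Over the interferon pathway list, 0 genes were higher by 1.5-fold and 4 were lower among 10 measured in the overexpression comparison. The shares of all measured genes there were 5.04% and 7.03%, and 5 of the 10 listed genes lay above 0. In the knockdown comparison 1 was higher and 1 lower among 9, against 10.9% and 11.1% of all measured genes.

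The peptide transporter genes TAP1 and TAP2 neighbour the inducible subunits: in the RefSeq gene order of the UU_Cfam_GSD_1.0 assembly TAP2, PSMB8, TAP1 and PSMB9 follow each other with 0 protein-coding genes between them, and PSME1 and PSME2 have 1 between them. TAP1 had 1137 on the array labelled J3T-1, 940.3 on J3T-1shA, 1504 on J3T-2 and 1376 on J3T-2A, in the same order of lines as PSMB8 at a smaller range. TAP2 was within 1.5-fold throughout (1388 to 1719.6) and lowest on J3T-2, but a second probe set (423.4 to 504.2) was highest there. B2M, the light chain of class I molecules, had 17039 on J3T-1, 16092 on J3T-1shA, 27301 on J3T-2 and 25095 on J3T-2A, again split by the line of origin. TAPBP and the peptide-trimming enzyme ERAP1 were lower on J3T-1 than on J3T-2, at -0.70 and -0.59, though a second ERAP1 probe set gave -0.19. ERAP1 was lower on J3T-1 than on J3T-2A only narrowly (724.7 against 760.5). By its second probe set it was higher there (405.5 against 350.4). In the knockdown comparison, the chaperone CALR (-0.67) and the class I heavy chain DLA88 (-0.61) were past 1.5-fold lower. Other CALR probe sets gave -0.69, -0.19 and -0.01. Class I genes have near-identical copies, so the DLA88 value is uncertain, and its second probe set gave -0.22.

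**Figure D5:**
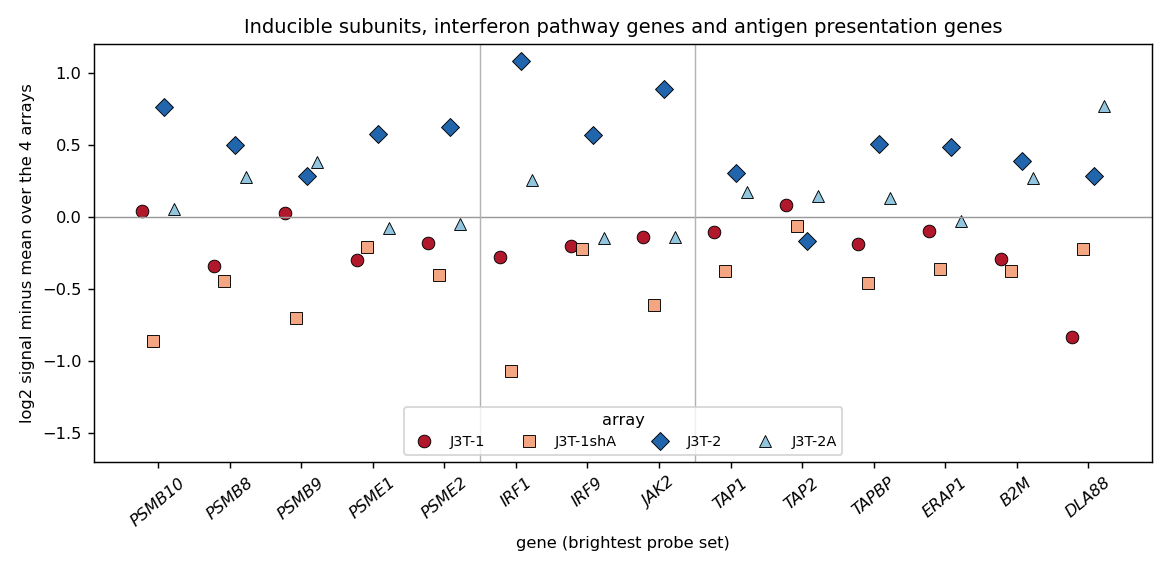
Log2 signal minus the mean over the 4 arrays (y axis) by gene (x axis), 1 symbol per array. Shown are the 5 interferon-inducible proteasome subunits, 3 interferon pathway genes picked from 10 measured and 6 antigen presentation genes picked from 9. Of the 10 interferon pathway genes, 5 lay above 0 and 5 below in the overexpression comparison. The array labelled J3T-2 (dark blue) is highest for PSMB10, PSMB8, PSME1, PSME2, IRF1, IRF9, JAK2, TAP1, TAPBP, ERAP1 and B2M, but not for PSMB9, TAP2 and DLA88.

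Immune cells carry immunoproteasomes, so their markers were read beside these values. Of 9 listed immune markers 8 were under the limit on every array. C1QA alone reached the limit by its brightest probe set, at 661.5 on the array labelled J3T-1, 514.8 on J3T-1shA, 317.4 on J3T-2 and 298.0 on J3T-2A. A second C1QA probe set gave 3.9, 3.8, 3.5 and 3.1 on these arrays, far under the limit, so its expression is uncertain. PTPRC, the common leukocyte antigen, gave 11.5 to 35.1 on the 4 arrays, well under the array medians. The summed signal of the 9 markers was 1162 on J3T-1, 901.7 on J3T-1shA, 810.3 on J3T-2 and 742.6 on J3T-2A, and that of the 8 under the limit was 500.1, 386.9, 492.9 and 444.6 in the same order, so the order of the whole sum came from C1QA. The part of immune cells in the values of the inducible subunits was not tested.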

How the data were processed

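The authors isolated total RNA from each line, hybridized it to 1 GeneChip Canine Genome 2.0 array and computed MAS 5.0 signals in single-array analyses with default settings and global scaling. The deposited values are linear intensities for 42924 probe sets, without detection calls. The study names a trimmed mean of 100, whereas the deposited columns had 495.8 to 496.0 with 2% left out at each end, so the signal limit of 50 and the pseudocount of 16 were multiplied by 5 (250 and 80). Genes were named from the array annotation, and all 42 members matched the RefSeq gene table. Ratios were taken with no further normalization, floor or pseudocount. limma 3.58.1 in R 4.3.3 (lmFit, eBayes with trend, 4.64 prior degrees of freedom) was fitted to log2 signals with the pseudocount, over genes reaching 250 on any array. Scripts used Python 3.11.15 and were tested on simulated data. The members, gene lists and the rule for named genes were chosen with earlier results of these data known. Named were the inducible subunits and their counterparts, members past 1.5-fold in any comparison, the highest and lowest ratio of each class, unmeasured members, and other listed genes past 1.5-fold in either annexin A2 comparison, and PSMD2, PSMD3, PSMD9, PSMC4, PSMD14, PSMG1, PSME3, TAP1, TAP2, B2M, TAPBP, ERAP1, the transcription factor genes and the markers also for their values or role. Alternatives covered the limit, pseudocount, scaling and choice of probe set.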

Additional observations from a re-analysis of the deposited data

Results flagged for a closer look

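PSMB10 ran in opposite directions in the comparisons of annexin A2-high over annexin A2-low lines, with 1 array on each side. Its log2 ratio was 0.90 in the knockdown comparison (J3T-1 over J3T-1shA) and -0.71 in the overexpression comparison (J3T-2A over J3T-2), a difference of 1.61. It was the only member past 1.5-fold both ways, and the difference was not tested, since a fit with this interaction leaves no residual degree of freedom among 4 arrays. Under the alternatives its log2 ratio stayed between 0.82 and 0.90 in the former and between -0.72 and -0.65 in the latter. All of them read the same 1 probe set, since the other (26.7 to 70.3) was under the limit, so they do not test these directions independently.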

How the results depend on the processing

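Of 99 counts of members under the alternatives 88 stayed within 1.5 times the reported count. Of 186 class medians 184 moved by less than the SD between probe sets (0.30 to 0.37). So did all 35 differences between inducible and constitutive subunits. That SD is larger than most class medians, so a median could shift much or change sign within it. With the limit doubled, the median of the other activators and inhibitor went from -0.36 to -0.65 in the knockdown comparison. In the parental comparison it went from -0.09 to -0.39. With no signal limit, PSMA8 and PSMB11 entered at signals of 15.8 or lower, and counts became 3 at 1.5-fold and 2 at 2-fold higher in the overexpression comparison, 1 at 2-fold higher in the knockdown comparison, and 1 at both folds higher in the parental comparison. The 1 member higher at 1.5-fold in the overexpression comparison, PSMG3, became 0 with a pseudocount, with the mean of probe sets and without _s_at and _x_at probe sets. In the last case its log2 ratio was reversed, at -0.028, because its other probe set was then read. Members lower at 1.5-fold in the knockdown comparison were 4 with median centring and 4 with the mean of probe sets, where PSMD2 and PSMD3 joined PSMC5 and PSME4. Without _s_at and _x_at probe sets 21 members remained, 1 was higher at 1.5-fold in the knockdown comparison since PSMB9 has no other probe set, and medians were -0.41 for the ATPases in the overexpression comparison and -0.48 for the other activators and inhibitor in the parental comparison. The limma fit gave 0 members at an adjusted p of 0.05 under every alternative run, also without the block for line of origin. For line of origin 1 or 2 members had an unadjusted p under 0.05, PSMB8 among them except with the doubled limit, where it was PSMB9. No paired analysis was possible because of the single array per line, which leaves fewer than 2 shared replicate numbers, other than the limma fit itself, whose block for line of origin pairs each derived line with its parent. With 1 array per line no replicate could be left out.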
